A study of Mus musculus with 8 samples.

Results

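The 10 genes described here form the core of the signalling route from leukaemia inhibitory factor (LIF) to the transcription factor STAT3 in mouse embryonic stem cells. They were chosen by symbol as receptors (Lifr, Il6st), kinases (Jak1, Jak2), signal transducers (Stat3, Ptpn11) and genes known to respond to STAT3 (Socs3, Pim1, Pim3, Gbx2). All 10 were found among the 55292 gene rows of the deposited count table, and all 10 passed the filter on low counts, which left 17342 genes. The study sequenced poly(A)-selected RNA of E14 embryonic stem cells (strain 129/Ola), cultured on gelatin with serum and LIF. Of the 4 groups of 2 biological replicates that the series describes, 3 are used: lncSmad7-/- cells transfected with Smad7, with 24 h named in their description, untreated lncSmad7-/- cells, and untreated wild-type E14 cells. lncSmad7 is a long noncoding RNA, and Smad7 encodes an inhibitor of TGF-beta superfamily signalling. Every group was grown with LIF, and no sample was deprived of it. The series names no mock-transfected group, so transfection itself and the transfected gene cannot be told apart in the labelled comparisons. The sources used here do not say how many knockout clones there were or whether replicate cultures were separate. The p-values therefore rest on the spread between libraries alone, and that spread may be technical.

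LIF binds its receptor LIFR, which pairs with the shared receptor chain gp130, encoded by Il6st. Janus kinases bound to both chains phosphorylate STAT3, which then enters the nucleus and switches on target genes that help to keep mouse embryonic stem cells self-renewing. SOCS3 is induced by STAT3 and shuts the receptor off again, while the phosphatase SHP2, encoded by Ptpn11, links gp130 to the ERK cascade.

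Total counts were 13392941 and 15972163 in the libraries labelled Smad7-transfected, 20159897 and 19455030 in the knockout, and 19260386 and 20209760 in wild type. The lncSmad7 feature had 167 and 207 counts in the libraries labelled Smad7-transfected, 140 and 105 in the knockout, and 237 and 221 in wild type. Smad7 stood at 96.6 ± 3.9 CPM in the labelled libraries, 72.5 ± 4.2 CPM in the knockout and 97.6 ± 0.048 CPM in wild type (SD, n = 2 each). Set beside the knockout, both genes passed as higher in the labelled libraries, Smad7 by 0.41 and lncSmad7 by 0.79 on the log2 scale. The rise of Smad7 had the direction that the label names, but it reached only about the wild-type level. The rise of lncSmad7 went against a label that names Smad7 alone. These 2 genes thus did not settle the label, and the text writes labelled Smad7-transfected for these libraries. Mitochondrial transcripts took 2.33% and 2.48% of counts in the labelled libraries, and between 1.37% and 1.58% in all 4 others. The Y-linked gene Ddx3y had 40 and 39 counts in the labelled libraries, 23 and 9 in the knockout, and 710 and 748 in wild type. The Y-linked genes Uty and Eif2s3y were also lower in the knockout than in wild type (log2 folds −4.93 and −4.32). In comparisons with wild type, the lncSmad7 genotype and this difference in Y-linked transcripts cannot be told apart. The summed level of 8 primitive endoderm markers was 106 to 111 CPM in the labelled libraries, 115 to 124 CPM in the knockout and 272 to 279 CPM in wild type, and all 8 were lower in the knockout than in wild type. Most of the sum was Lama1, at 94.3 CPM in the labelled libraries and 111 CPM in the knockout, and in that comparison 4 of the 8 were higher, 1 was lower and 3 did not pass. Of these markers Gata6 had 29 and 29 counts in the labelled libraries, 5 and 4 in the knockout, and 167 and 200 in wild type. Of 8 fibroblast and feeder cell markers 3 passed the filter, and the sum of all 8 stayed between 7.55 and 17.3 CPM in all 6 libraries, highest in the labelled ones, with Col3a1, Dcn and Lum at 2 counts or fewer in each. The summed level of 8 embryonic stem cell markers was 3313 to 3351 CPM in the labelled libraries, 4684 to 4716 CPM in the knockout and 3709 to 3736 CPM in wild type. The part that any of these differences has in the results below was not tested. In bulk RNA, fewer cells of a type and less RNA per cell cannot be told apart.

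The receptor genes differed in opposite directions in the knockout. Lifr, at chr15:7090614-7197489 on the plus strand of GRCm38, had 153 and 143 CPM (read counts scaled to library size and TMM factor) in the labelled Smad7-transfected libraries, 124 and 115 CPM in the knockout, and 201 and 188 CPM in wild type. The 3 groups did not overlap, with wild type highest and the knockout lowest. Relative to wild type, Lifr was 1.63-fold lower in knockout cells, a log2 fold of −0.70 (SE 0.041, adjusted p = 1.6e-33). It was higher in the labelled libraries than in the knockout (0.30, SE 0.042, adjusted p = 2.1e-10), but offsets for GC content and transcript length turned this to −0.061 (adjusted p = 0.12). Over wild type the labelled libraries gave −0.40 (SE 0.041, adjusted p = 9.2e-17). With library size scaling that value was −0.0082 (adjusted p = 0.86), where the median of all genes was 0.48. Il6st, at chr13:112464070-112510086 on the plus strand, had 101 and 104 CPM in the labelled libraries, 133 and 127 CPM in the knockout, and 107 and 108 CPM in wild type. It was highest in the knockout, where it rose relative to wild type (0.27, SE 0.043, adjusted p = 9.1e-09), and it fell in the labelled libraries relative to the knockout (−0.35, SE 0.043, adjusted p = 1.2e-12). Between labelled libraries and wild type Il6st gave −0.076 (SE 0.045, adjusted p = 0.11), and its direction depended on the processing: it passed as lower with GC and length offsets (−0.38) and as higher with library size scaling (0.32).

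Both receptor kinases rose in the knockout. Jak1, at chr4:101152367-101265282 on the minus strand, had 87.7 and 85.7 CPM in the labelled libraries, 109 and 105 CPM in the knockout, and 64.1 and 64.8 CPM in wild type. The knockout was highest and wild type lowest, without overlap. Its log2 fold was 0.73 in the knockout over wild type (SE 0.048, adjusted p = 4.0e-31) and −0.30 in the labelled libraries over the knockout (SE 0.046, adjusted p = 1.8e-09), a call that library size scaling removed (−0.055, adjusted p = 0.27). Jak2, at chr19:29251828-29313080 on the plus strand, was rarer, with 13.03 and 12.2 CPM in the labelled libraries, 9.48 and 7.99 CPM in the knockout, and 6.43 and 5.59 CPM in wild type. The labelled libraries were highest and wild type lowest, with no overlap between groups. The log2 folds were 0.54 for knockout over wild type (SE 0.13, adjusted p = 1.6e-04) and 0.52 for labelled libraries over knockout (SE 0.11, adjusted p = 2.0e-05). Relative to wild type directly, Jak2 was 2.09-fold higher in the labelled libraries (log2 fold 1.07, SE 0.13, adjusted p = 9.0e-14).

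Both transducer genes fell in the knockout relative to wild type. Stat3, at chr11:100885098-100939540 on the minus strand, encodes the transcription factor of the pathway and had 129 and 131 CPM in the labelled libraries, 139.7 and 144 CPM in the knockout, and 171 and 173 CPM in wild type. Wild type stood above both other groups. The log2 fold was −0.28 in the knockout over wild type (SE 0.040, adjusted p = 1.9e-10), and −0.41 in the labelled libraries over wild type (SE 0.041, adjusted p = 5.7e-18), but only −0.017 with library size scaling (adjusted p = 0.70), where the median of all genes was 0.48. The smaller difference between labelled libraries and knockout (−0.13, SE 0.041, adjusted p = 0.0033) turned to 0.12 with library size scaling, where the median of all genes was itself 0.29. Ptpn11, at chr5:121130533-121191397 on the minus strand, had 96.8 and 96.2 CPM in the labelled libraries, 143 and 139.8 CPM in the knockout, and 168 and 164 CPM in wild type. Labelled libraries were lowest and wild type highest. It fell by 0.23 in the knockout relative to wild type (SE 0.040, adjusted p = 1.3e-07) and by 0.55 in the labelled libraries relative to the knockout (SE 0.043, adjusted p = 3.3e-25), both on the log2 scale.

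The 4 STAT3-responsive genes did not move as a block. Socs3, the feedback inhibitor of the receptor, at chr11:117966079-117970047 on the minus strand, had 118 and 122 CPM in the labelled libraries, 166 and 165 CPM in the knockout, and 114.7 and 114.6 CPM in wild type. The knockout stood above both other groups, and the labelled libraries lay slightly above wild type without overlap. Relative to wild type, Socs3 rose by 0.53 on the log2 scale in the knockout (SE 0.041, adjusted p = 5.2e-25) and fell in the labelled libraries relative to the knockout (−0.46, SE 0.041, adjusted p = 5.3e-21). Between labelled libraries and wild type the log2 fold was 0.066 (SE 0.043, adjusted p = 0.15). This value passed as higher with library size scaling (0.46, adjusted p = 7.1e-20), where it lay just under the median of all genes of 0.48. It also passed as higher with at least 1 CPM in 4 libraries (0.17, adjusted p = 1.4e-04). With GC and length offsets it was −0.076 (adjusted p = 0.059).

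Pim1 encodes a serine/threonine kinase that promotes survival and lies at chr17:29490753-29496112 on the plus strand. It had 13.2 and 9.52 CPM in the labelled libraries, 46.4 and 47.5 CPM in the knockout, and 34.9 and 33.8 CPM in wild type. The labelled libraries were far below both other groups and the knockout was highest. Its log2 fold in the knockout over wild type was 0.45 (SE 0.066, adjusted p = 7.1e-10). Relative to the knockout, Pim1 was 4.19-fold lower in the labelled libraries, with a log2 fold of −2.07 (SE 0.083, adjusted p = 8.9e-50), a change that only 6.25% of all genes tested exceeded in size.

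Its relative Pim3, at chr15:88862186-88865726 on the plus strand, had 118 and 113 CPM in the labelled libraries, 293 and 301 CPM in the knockout, and 312 and 310.3 CPM in wild type. Labelled libraries again stood apart from the rest. The log2 fold was −1.37 in the labelled libraries over the knockout (SE 0.040, adjusted p = 1.2e-69). Between knockout and wild type Pim3 gave −0.069 (SE 0.036, adjusted p = 0.082), and the call depended on the processing. It passed as lower by DESeq2 (adjusted p = 0.014), with RLE scaling (adjusted p = 0.0016) and with GC and length offsets (−0.31, adjusted p = 7.2e-21). With library size scaling it turned to 0.075, which did not pass (adjusted p = 0.055). Gbx2, a homeobox gene able to sustain self-renewal downstream of STAT3, lies at chr1:89927956-89931179 on the minus strand. It had 11.4 and 10.98 CPM in the labelled libraries, 31.9 and 27.98 CPM in the knockout, and 43.7 and 45.3 CPM in wild type. The 3 groups formed separate steps, lowest in the labelled libraries. Gbx2 fell in the knockout relative to wild type (−0.57, SE 0.066, adjusted p = 4.4e-14) and was 2.68-fold lower in the labelled libraries than in the knockout (−1.42, SE 0.088, adjusted p = 3.2e-33). Relative to wild type directly, Gbx2 was 3.98-fold lower in the labelled libraries, and Pim1 3.06-fold. Pim3 gave a log2 fold of −1.43 there (SE 0.040, adjusted p = 7.1e-73).

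**Figure D1:**
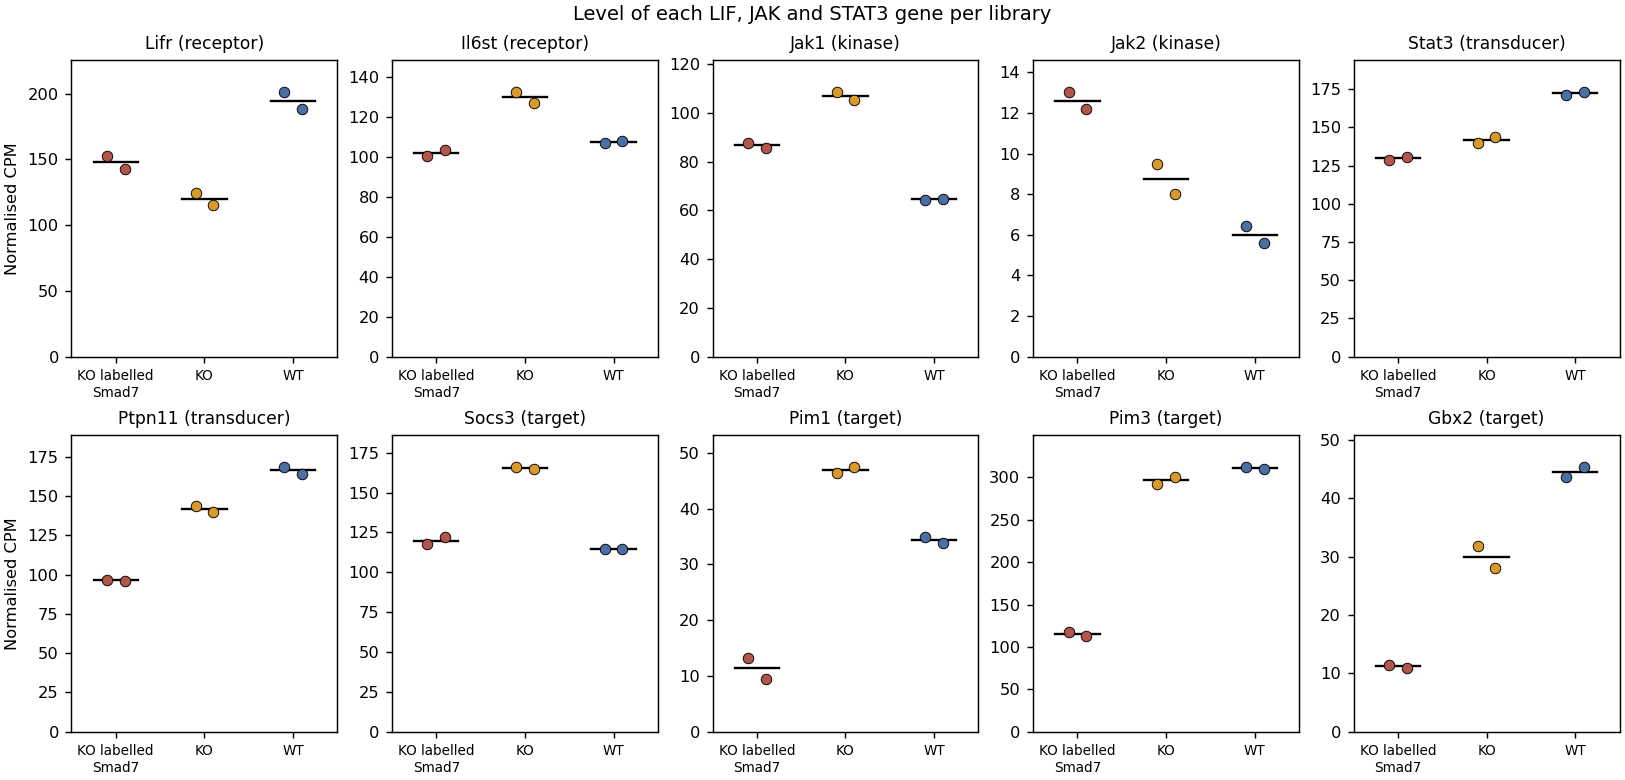
Normalised CPM (vertical axes, each from 0) of the 10 genes in each library, for the knockout labelled Smad7-transfected, the knockout (KO) and wild type (WT). Points are libraries and lines are means of 2. Pim1, Pim3 and Gbx2 are lowest in the labelled libraries, Socs3 and Il6st are highest in the knockout, and Jak2 is highest in the labelled libraries.

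The promoter windows of the responsive genes Socs3, Pim3 and Gbx2 are shown, chosen with their values across the groups known. Any part of these windows in those values was not tested. They are RefSeq sequences of GRCm38.p6, 250 bases before to 50 bases after the start annotated by RefSeq. For Socs3 this start lies 180 bases upstream of that of the protein-coding transcript in GENCODE M21, and inside the gene span given above, which a noncoding transcript extends to 681 bases further upstream. Pim1, which has 2 annotated starts, is not printed. Capitals mark the 1 match to TTCNNNGAA, the palindrome that STAT dimers are known to bind, which reads the same on both strands.
Socs3, chr11:117969317-117969616, minus strand: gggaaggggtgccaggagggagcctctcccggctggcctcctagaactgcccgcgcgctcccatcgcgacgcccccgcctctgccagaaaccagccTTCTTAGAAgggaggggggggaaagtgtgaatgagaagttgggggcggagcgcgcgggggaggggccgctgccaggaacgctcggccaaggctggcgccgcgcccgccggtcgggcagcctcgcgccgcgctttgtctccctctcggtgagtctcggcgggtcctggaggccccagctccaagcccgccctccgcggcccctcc
Pim3, chr15:88861944-88862243, plus strand: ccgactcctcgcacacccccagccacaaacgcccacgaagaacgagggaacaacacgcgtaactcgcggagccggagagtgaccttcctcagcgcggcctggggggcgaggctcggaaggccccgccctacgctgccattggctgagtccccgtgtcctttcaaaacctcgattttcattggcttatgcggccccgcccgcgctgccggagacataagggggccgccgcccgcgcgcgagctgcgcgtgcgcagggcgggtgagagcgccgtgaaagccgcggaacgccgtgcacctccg
Gbx2, chr1:89931127-89931426, minus strand: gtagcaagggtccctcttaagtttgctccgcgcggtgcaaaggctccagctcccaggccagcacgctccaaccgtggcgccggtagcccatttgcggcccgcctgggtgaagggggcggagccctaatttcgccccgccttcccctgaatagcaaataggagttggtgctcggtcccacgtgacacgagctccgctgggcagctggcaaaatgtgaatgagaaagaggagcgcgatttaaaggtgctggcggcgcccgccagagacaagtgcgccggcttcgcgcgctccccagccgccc
The match in the Socs3 window begins 154 bases before the RefSeq start and thus lies within that longer span. None of the other 11 windows of the 10 genes held TTCNNNGAA, and none of the 12 held the narrower form TTCCNGGAA. Among all 32851 windows of this length in the table, 8.30% held TTCNNNGAA and 1.15% held TTCCNGGAA. A match is a description of letters in this window only, and sites outside it were not searched. The Socs3 window ends upstream of the start of the protein-coding transcript, so the bases next to that start were not searched.

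As a group, 9 of the 10 genes passed the test in the knockout against wild type (edgeR's quasi-likelihood test, adjusted p under 0.05), 5 higher and 4 lower. Among all genes tested 67.7% passed in that comparison, 34.5% higher and 33.3% lower, so the count by itself says little about these 10. With a log2 fold of 1 or more required as well, 0 of the 10 passed, against 22.9% of all genes, and their median size of change was 0.49, against 0.51 for all genes. In the labelled libraries against the knockout all 10 passed, 2 higher and 8 lower, where 74.6% of all genes passed, 37.8% higher and 36.8% lower. With library size scaling that split changed, as Stat3 turned to 0.12 and Jak1 did not pass (−0.055, adjusted p = 0.27). The median log2 fold of the 10 genes was −0.40, against 0.039 for all genes. Their median size of change was 0.49, against 0.59 for all genes. Pim1, Pim3 and Gbx2 met the stricter rule, as did 25.8% of all genes. In the labelled libraries against wild type 8 of 10 passed, 2 higher and 6 lower, where 81.9% of all genes passed, 43.1% higher and 38.8% lower. Here Jak2, Pim1, Pim3 and Gbx2 met the stricter rule, against 43.0% of all genes. The median size of change of the 10 genes was 0.61, against 0.86 for all genes. The share of higher calls among all called genes depended on the scaling: in the knockout against wild type it was 50.9%, and 61.7% with library size scaling. The same 2 shares were 50.7% and 65.7% in the labelled libraries against the knockout, and 52.6% and 68.3% in the labelled libraries against wild type. Each of the 3 comparisons shares a group with the other two, so their values are set side by side and not related to each other.

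**Figure D2:**
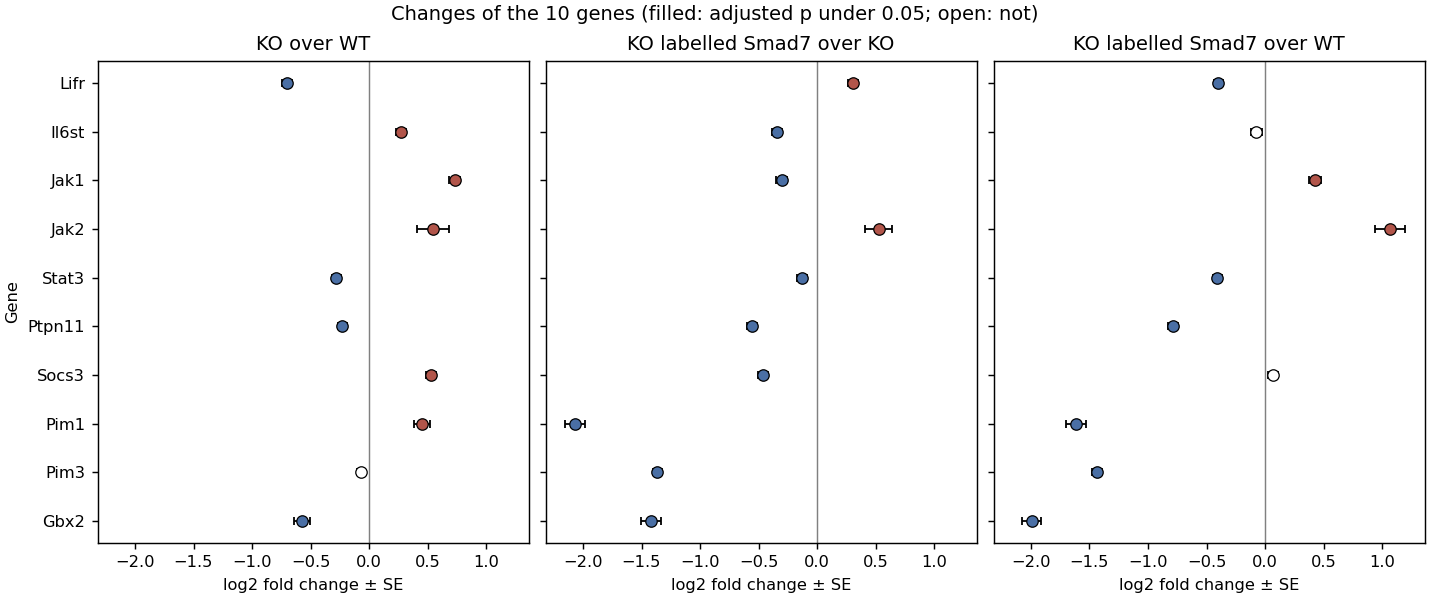
Log2 fold change with its SE (horizontal axes) of the 10 genes in the 3 comparisons, from edgeR's quasi-likelihood fit. Filled points passed at an adjusted p under 0.05 (red higher, blue lower) and open points did not. Pim1, Pim3 and Gbx2 lie furthest to the left in both comparisons of the labelled libraries, and Jak2 lies to the right of 0 in all 3.

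Divided by length, levels can be compared between the genes. The length used is that of all annotated exons of a gene merged (GENCODE M21), and the middle of the order depended on that choice. In all 3 groups Pim3 was highest, at 47.5 ± 1.4 CPM per kb in the labelled libraries, 122 ± 2.4 in the knockout and 128 ± 0.56 in wild type (SD, n = 2 each). Socs3 came next in each group, at 41.5 ± 0.97 CPM per kb in the labelled libraries, 57.2 ± 0.30 in the knockout and 39.7 ± 0.037 in wild type. Jak2 came last, at 2.51 ± 0.12 CPM per kb in the labelled libraries, 1.74 ± 0.21 in the knockout and 1.19 ± 0.12 in wild type. Between these ends the order differed. In wild type Ptpn11 and Gbx2 (22.2 and 20.5 CPM per kb) stood above Stat3 and Lifr, which at 18.1 CPM per kb each did not differ beyond their spread, followed by Pim1, Il6st and Jak1. In the knockout Ptpn11 (18.9 CPM per kb) stood above a tight run of Stat3, Jak1, Pim1, Gbx2, Il6st and Lifr between 14.9 and 11.1 CPM per kb. Stat3 and Jak1, Pim1 and Gbx2, and Il6st and Lifr overlapped as neighbours in that run, and Gbx2 also overlapped Jak1. In the labelled libraries Lifr and Stat3 overlapped at 13.7 and 13.6 CPM per kb, and Gbx2 (5.14 CPM per kb) and Pim1 (3.37 CPM per kb) stood just above Jak2. Divided by the longest transcript instead, Stat3 had 21.5 CPM per kb in the labelled libraries, 23.5 in the knockout and 28.5 in wild type. That put Stat3 above Ptpn11, which had 12.96, 19.03 and 22.3 CPM per kb in the labelled libraries, the knockout and wild type, and above Lifr in each group. In the labelled libraries and the knockout Jak1 (17.7 and 21.8 CPM per kb) also came above Ptpn11. Jak2 kept the last place in each group. Pim3 stayed above Socs3 in the knockout and wild type, but in the labelled libraries the 2 genes came to 47.5 and 47.0 CPM per kb and were no longer apart.

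Ratios between 2 of these genes within a library do not depend on how libraries are scaled. The 5 pairs given here were chosen after their values were seen, and with 2 libraries a group an exact permutation test cannot give a p below 0.333, so none was run. Per kb of exon, the ratio of Lifr to its partner Il6st was 1.56 and 1.42 in the labelled libraries, 0.965 and 0.932 in the knockout, and 1.94 and 1.79 in wild type. The ratio was lowest in the knockout and highest in wild type. Its absolute value depends on the length used: per kb of the longest transcript it was 1.36 and 1.24 in the labelled libraries, 0.842 and 0.814 in the knockout, and 1.69 and 1.57 in wild type. The ratio of Socs3 to Stat3 was 3.02 and 3.07 in the labelled libraries, 3.92 and 3.77 in the knockout, and 2.21 and 2.18 in wild type. The ratio of Gbx2 to Socs3 was 0.129 and 0.1196 in the labelled libraries, 0.255 and 0.225 in the knockout, and 0.506 and 0.526 in wild type. For these 3 ratios no group overlapped another. Jak2 to Jak1 gave 0.214 and 0.204 in the labelled libraries, 0.125 and 0.109 in the knockout, and 0.144 and 0.124 in wild type, so only the labelled libraries stood apart. Pim1 to Pim3 gave 0.0807 and 0.0609 in the labelled libraries, 0.115 and 0.114 in the knockout, and 0.0806 and 0.0787 in wild type. Here the knockout alone stood apart, and the labelled libraries and wild type overlapped.

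**Figure D3:**
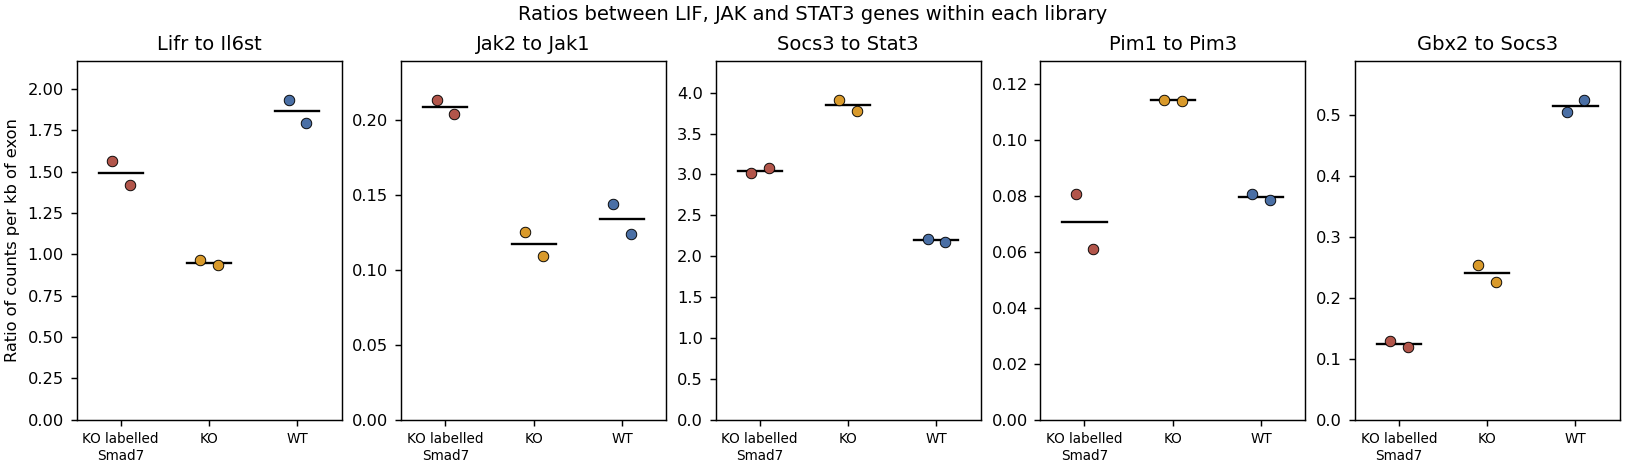
Ratios of counts per kb of exon between 2 genes in the same library (vertical axes, each from 0), for the knockout labelled Smad7-transfected, the knockout (KO) and wild type (WT). Points are libraries and lines are means of 2. Lifr to Il6st is lowest and Socs3 to Stat3 highest in the knockout, while Gbx2 to Socs3 is lowest in the labelled libraries.

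A further 67 genes of the pathway were followed in 6 lists, of which 62 passed the filter on low counts. In the knockout against wild type 31 were higher, 18 lower and 13 did not pass, with a median log2 fold of 0.22. Among all genes tested 34.5% were higher and 33.3% lower there. Against the knockout, 16 were higher in the labelled libraries, 27 lower and 19 did not pass, with a median of −0.13. That balance depended on the scaling, since library size scaling gave 33 higher and 21 lower. Among all genes tested 37.8% were higher and 36.8% lower in the labelled libraries than in the knockout. The counts of each list below are to be read against the same shares of all genes.

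Of 9 ligands of the interleukin-6 family 5 passed the filter, and in the knockout 3 were higher than in wild type and 0 lower. Lif itself, the ligand that was also added to the medium, had 210 and 244 counts in the labelled libraries, 224 and 229 in the knockout, and 78 and 71 in wild type. Its log2 fold was 1.45 in the knockout over wild type (SE 0.13, adjusted p = 1.3e-19), and it did not pass between labelled libraries and knockout (0.19, SE 0.10, adjusted p = 0.096). Osm, encoding oncostatin M, was rare, with 7 and 13 counts in the labelled libraries, 29 and 31 in the knockout, and 0 and 6 in wild type. It rose in the knockout (3.12, SE 0.49) and fell in the labelled libraries relative to the knockout (−1.39, SE 0.37), where it did not pass by DESeq2 (adjusted p = 0.058). Clcf1 rose in the knockout (1.63, SE 0.55) but not without wild-type replicate 1 (0.88, adjusted p = 0.21) or knockout replicate 1 (1.43, adjusted p = 0.064), nor by DESeq2 (1.61, adjusted p = 0.079). Against the knockout, 1 ligand was higher and 2 lower in the labelled libraries, but 3 and 1 with GC and length offsets, and 3 and 2 with library size scaling. Ctf1 fell (−0.69, SE 0.20), which did not pass by DESeq2 (adjusted p = 0.064) or with GC and length offsets (−0.38, adjusted p = 0.075). Ebi3 was higher (0.97, SE 0.42, adjusted p = 0.031), but it had at most 18 counts in any library and did not pass without any 1 of the 4 libraries (adjusted p = 0.054 to 0.22).

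Of the 5 other receptors of the family 3 were higher and 1 lower in the knockout than in wild type. Il6ra, the interleukin-6 receptor, rose (1.43, SE 0.15), and so did Il11ra1, the interleukin-11 receptor (1.61, SE 0.18). The receptor for ciliary neurotrophic factor, Cntfr, fell (−0.99, SE 0.11). It had 14.1 and 17.3 CPM in the labelled libraries, 8.26 and 7.31 CPM in the knockout, and 15.9 and 15.04 CPM in wild type, so the knockout alone stood apart. Compared with the knockout, 3 of these receptors were higher in the labelled libraries and 0 lower, namely Cntfr (1.02, SE 0.11), Il6ra (0.53, SE 0.11) and Osmr (1.08, SE 0.45). Osmr, the oncostatin M receptor, had at most 16 counts in a library and did not pass by DESeq2 (adjusted p = 0.16) or with no filter on low counts (adjusted p = 0.058). Nor did it pass without labelled replicate 1 (0.85, adjusted p = 0.18), knockout replicate 1 (1.23, adjusted p = 0.063) or knockout replicate 2 (0.91, adjusted p = 0.14).

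The 8 other JAK and STAT genes were mostly higher in the knockout, 7 higher and 0 lower than in wild type, with a median log2 fold of 0.80. The count was 6 by DESeq2 and 8 with library size scaling. Stat6, the mediator of interleukin-4 signals, had 72.7 and 71.3 CPM in the labelled libraries, 94.2 and 95.4 CPM in the knockout, and 36.8 and 37.7 CPM in wild type, and rose in the knockout (1.35, SE 0.054, adjusted p = 2.9e-53). Tyk2 (0.94, SE 0.049) and Jak3 (0.803, SE 0.049), the remaining Janus kinases, rose as well. Between labelled libraries and knockout 4 were higher and 2 lower. Jak3 was higher (0.67, SE 0.043), at 156 and 152 CPM in the labelled libraries against 95.3 and 97.8 CPM in the knockout, while Tyk2 (−0.51, SE 0.047) and Stat6 (−0.398, SE 0.048) were lower.

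Among 15 adaptors and members of the ERK branch, 3 were higher and 7 lower in the knockout than in wild type, and the median, −0.095, turned to 0.049 with library size scaling. The adaptor Gab1 (−0.695, SE 0.036) and the kinase Braf (−0.83, SE 0.051) fell. Between labelled libraries and knockout 4 were higher and 9 lower, but 7 were higher and 8 lower with library size scaling. Grb2, an adaptor that binds activated receptors, fell (−0.74, SE 0.046), as did Map2k2 (−0.79, SE 0.052), while Braf was higher (1.07, SE 0.0502).

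The 15 other inhibitors split, with 7 higher and 5 lower in the knockout than in wild type, although DESeq2 gave 3 and 5. The receptor phosphatase Ptprj rose (1.85, SE 0.076), with 47.6 and 47.8 CPM in the labelled libraries, 50.6 and 47.96 CPM in the knockout, and 14.98 and 12.4 CPM in wild type. Socs4 (−1.11, SE 0.061) and the phosphatase Ptpn2 (−0.71, SE 0.053), which dephosphorylates JAKs and STATs, fell. Set against the knockout, the labelled libraries had 3 higher and 5 lower, but 9 and 4 with library size scaling. Socs4 was higher (1.38, SE 0.0596), at 71.8 and 72.5 CPM in the labelled libraries against 28.9 and 26.8 CPM in the knockout. The phosphatase Ptpn1 (−0.63, SE 0.060) and Socs7 (−0.58, SE 0.058) were lower.

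Of 14 other STAT3 or LIF responsive genes tested, 8 were higher and 5 lower in the knockout than in wild type. The spread was wide, with Klf4 at 338 and 334 CPM in the knockout against 113 and 108 CPM in wild type, and Myc at 22.5 and 22.03 CPM in the knockout against 117.3 and 116.6 CPM in wild type. Set against the knockout, the labelled libraries had 1 higher and 9 lower, with a median log2 fold of −0.25, but with library size scaling 6 were higher and 5 lower. The cyclin gene Ccnd1 fell (−0.99, SE 0.039), with 130.5 and 128 CPM in the labelled libraries against 259.8 and 253 CPM in the knockout. Bcl3, a cofactor of NF-kappaB known to respond to LIF, fell (−1.20, SE 0.069), with 20.3 and 21.3 CPM in the labelled libraries against 47.2 and 48.5 CPM in the knockout. Klf4 was also lower (−0.59, SE 0.037). Klf5 was higher in the knockout than in wild type (1.195, SE 0.039, adjusted p = 2.4e-64) and gave −0.075 in the labelled libraries over the knockout (SE 0.036, adjusted p = 0.052).

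**Figure D4:**
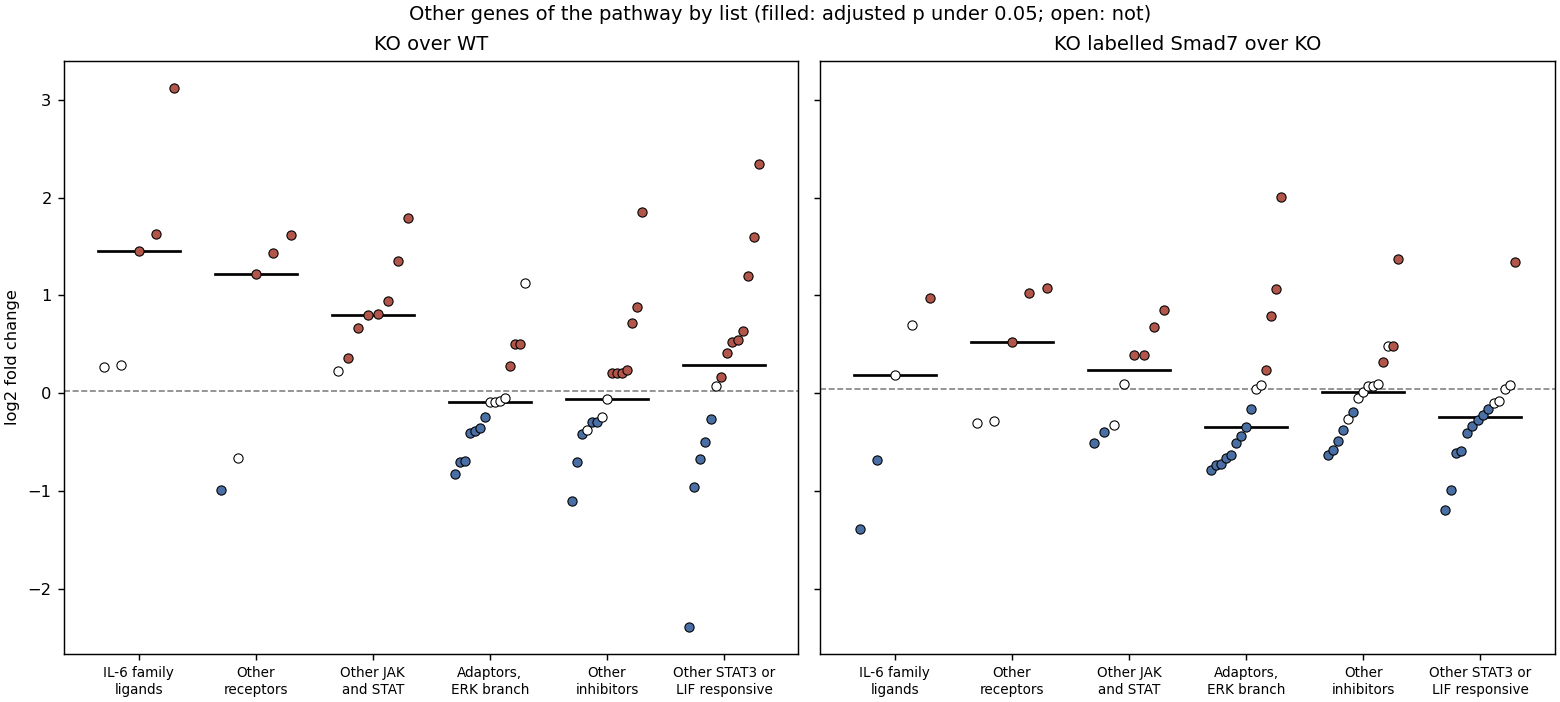
Log2 fold change (vertical axis) of 62 further genes of the pathway in 6 lists, for the knockout over wild type (left) and the labelled Smad7-transfected knockout over the knockout (right). Each point is a gene, filled where it passed at an adjusted p under 0.05 (red higher, blue lower), black lines are list medians and the dashed line is the median of all genes tested. In the left panel 7 of 8 other JAK and STAT genes are filled above 0.

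Some genes elsewhere in the table followed Socs3 or Lifr closely. The search covered 10291 genes with a mean of at least 5 CPM, with clone-type names, such as those ending in Rik, left out. By deviations from their own mean log2 CPM over the 6 libraries, the 4 nearest to Socs3 were Eef2 (Euclidean distance 0.0646), Zswim3, Herc2 and Pdpk1. Those nearest to Lifr were Arl5a (0.0339), Pkn2, Bmpr1a and Ckap5. This is a likeness over 3 groups of 2 libraries only.

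Antisense or overlapping annotation touches several of the 10 genes, and the sources used here do not give the strand setting of the counts. Gbx2 shares 946 bases of exon with D130058E05Rik on the opposite strand, which had 22 and 28 counts in the labelled libraries, 62 and 52 in the knockout, and 47 and 30 in wild type. Pim1 shares 488 bases of exon with Gm26885 on the opposite strand, which had at most 5 counts in any library. Stat3 shares 72 bases with Stat5a at their ends, and Jak1 shares 4 bases with Raver2. Without strand, reads in those shared bases cannot be told apart.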

How the data were processed

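Per the labels' protocols, poly(A)-selected RNA was sequenced on an Illumina instrument from TruSeq libraries, and the authors deposited raw read counts per gene symbol. The submitters' processing notes list STAR and featureCounts 1.6.3, and mm10 and GRCm38 as builds. How strand and shared reads were handled, and which annotation release was counted, are not given in the sources used. Of the deposited columns 6 name a group and replicate that the labels give. The other 2 could not be tied to 1 sample by name and stayed out. Their names match the endings of the descriptions of the Smad7-transfected samples. Which transfection the left-out columns and the labelled columns hold was therefore not settled. No column that names the lncSmad7-transfected group was analysed here.

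From these counts, 17342 genes were kept by filterByExpr and scaled with TMM factors, giving normalised CPM. All 6 libraries entered 1 fit of edgeR's robust quasi-likelihood test (edgeR 4.0.16, limma 3.58.1, R 4.3.3) with 3 residual degrees of freedom. The fit was tried first on simulated counts in which few genes changed. Those counts cannot show how the scaling behaves where most genes pass, as in these comparisons. All genes tested entered the Benjamini-Hochberg adjustment, the threshold was 0.05, and the SE of a log2 fold was taken from the F statistic. The common biological coefficient of variation was 2.47%. A chi-square test of replicate counts gave 1.89 per degree of freedom in the labelled Smad7-transfected libraries, 1.72 in the knockout and 1.57 in wild type. Replicates thus differed by more than sampling noise, which library preparation alone could give. Each library counts as 1 sample in the fit, and whether the cultures were separate is not known. Positions, GC content and exon lengths came from GENCODE M21 (GRCm38), by symbol. Promoter windows came from RefSeq (GRCm38.p6), and all 10 genes matched.

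The 10 genes and the lists were chosen with earlier results of these data known. Beside the 10 genes, the text names up to 3 genes of each pathway list with the smallest adjusted p in each of the first 2 comparisons, and the 4 genes nearest to Socs3 and to Lifr. A gene that this rule names is not reported here. Alternatives were RLE scaling, library size scaling, DESeq2 1.42.0, a minimum of 1 CPM in 4 libraries, no filter on low counts, a replicate block, a fit of only the 4 libraries compared, glmTreat against a fold of 1.2, library-specific GC and length offsets (mgcv 1.9.3, for the 97.8% of genes that had both values) and leaving out each library in turn.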

Additional observations from a re-analysis of the deposited data

How the results depend on the processing

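All 10 alternatives were run. The counts of genes called and the counts of these 10 genes called stayed within 1.5 times the reported counts under every alternative. With each library left out in turn, 10712 to 10818 genes were called in the knockout against wild type, 11667 to 12245 in the labelled Smad7-transfected knockout against the knockout and 13353 to 13792 in the labelled knockout against wild type, and 9, 10 and 8 of the 10 genes were called each time. Of 390 log2 folds of the 10 genes under the alternatives, 364 kept their direction and their side of the threshold, 10 no longer passed, 10 newly passed and 6 turned round. The glmTreat folds repeat those of the reported fit, so only their side of the threshold could change. All alternatives drew on the same libraries and are not independent of each other. With library size scaling, Pim3 in the knockout against wild type turned to 0.075, Stat3 in the labelled knockout against the knockout to 0.12, and Il6st in the labelled knockout against wild type to 0.32. That scaling moved the median of all genes by 0.14, 0.25 and 0.39 in these 3 comparisons, and relative to that median the 3 genes stood at −0.093, −0.17 and −0.16. With GC and length offsets, Lifr in the labelled knockout against the knockout turned to −0.061 and Socs3 in the labelled knockout against wild type to −0.076. With at least 1 CPM in 4 libraries, Il6st in the labelled knockout against wild type turned to 0.032. Against a fold of 1.2, glmTreat no longer called Il6st, Stat3 and Ptpn11 in the knockout against wild type, nor Lifr, Jak1 and Stat3 in the labelled knockout against the knockout. Library size scaling no longer called Lifr and Stat3 in the labelled knockout against wild type, nor Jak1 in the labelled knockout against the knockout. The labels number the replicates 1 and 2 in each group, but same-numbered libraries did not deviate together (r between 0.0053 and 0.026 over genes). With the replicate block 11822, 12982 and 14219 genes were called, and Pim3 passed in the knockout against wild type (−0.069, adjusted p = 0.039). Depth limits the rarest genes named, such as Osm, Clcf1, Ebi3 and Osmr.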

Other observations

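Stat3 lies beside 2 other STAT genes on chromosome 11 of GRCm38, with Stat5b at chr11:100780731-100850724 on the minus strand, Stat5a at chr11:100859351-100885169 on the plus strand and Stat3 at chr11:100885098-100939540 on the minus strand. Stat5a and Stat5b encode the closely related transcription factors that carry prolactin and growth hormone signals. Stat5a had 100 and 127 counts in the libraries labelled Smad7-transfected, 98 and 99 in the knockout, and 24 and 27 in wild type. Stat5b had 303 and 374 counts in the labelled libraries, 303 and 283 in the knockout, and 142 and 160 in wild type. Both rose in the knockout relative to wild type, Stat5a by a log2 fold of 1.80 (SE 0.21, adjusted p = 7.1e-14) and Stat5b by 0.81 (SE 0.11, adjusted p = 1.8e-11), while Stat3 fell by 0.28. In the labelled libraries relative to wild type the log2 folds were 2.18 for Stat5a (SE 0.202), 1.199 for Stat5b (SE 0.10) and −0.41 for Stat3 (SE 0.041). With library size scaling Stat3 gave −0.017 in the labelled libraries over wild type (adjusted p = 0.70), so its opposite direction there was no call under that scaling. Stat3 remained the most abundant of them by counts in every library. These genes were chosen after their values were seen.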
